A study of Macaca mulatta with 136 samples.

Results

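The genes described here make retinoic acid, break it down, carry it or respond to it: ALDH1A1, ALDH1A2, ALDH1A3, CYP26A1, CYP26B1, DHRS3, RARB, CRABP1, CRABP2 and RARRES2. They were chosen by name, with earlier results of these data known. An entry was taken where the gene symbol that the authors listed beside it equalled one of these 10 symbols. 9 of the 10 were found, each with 1 entry, among 19422 gene identifiers. No entry carries the symbol CYP26B1. The entry listed as LOC704750 has an identifier that a gene name table pairs with CYP26B1. It was chosen after the files had been seen, is described beside CYP26A1 and is not among the 9 genes counted here.

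RNA was taken after death from both eyes of 2 adult rhesus macaques, named RM03 and RM04, and the labels give no genotype or agent. Punches of 2 mm came from fovea, perimacula, nasal retina and periphery, and neural retina was parted from RPE/choroid, which is the retinal pigment epithelium with the choroid, the vascular layer behind it. This gave 8 groups of 4 eyes, 32 libraries in all. Values below are listed in the order RM03 right eye (OD), RM03 left eye (OS), RM04 OD and RM04 OS. The right and left eye share an animal, and the tests take out the mean difference between the 2 animals. The p-values thus measure the spread of eyes that is left, and not the spread between animals. Each sample is a mixture of cell types.

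Retinoic acid is a small lipid signal made from vitamin A. Retinol is oxidised to retinal, and the aldehyde dehydrogenases of the ALDH1A family oxidise retinal to retinoic acid in a step that is not reversed, while DHRS3 turns retinal back into retinol. CRABP1 and CRABP2 bind retinoic acid in the cytoplasm, the CYP26 enzymes hydroxylate it for removal, and the receptors RARA, RARB and RARG, paired with RXR partners, read it in the nucleus. In the eye the same retinal is the light-absorbing part of the visual pigments, and the pigment epithelium renews it. In the developing bird retina an area of retinoic acid breakdown is known to mark the rod-free area of sharp vision.

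Levels are CPM, a gene's counts per 1000000 counts of its library, with totals corrected for composition by the TMM method. They were summed from estimated counts that the authors deposited per sequencing lane, with totals between 42448891 and 78574034 per library. Gene lengths are not given in the files used here, so levels are compared between samples of 1 gene and never between genes. The fovea, perimacula and nasal libraries ran on the same 2 flow cells and the periphery libraries on 1 other, so that periphery and flow cell cannot be told apart. Comparisons among the first 3 locations do not cross flow cells. A difference was called at an adjusted p under 0.05 from edgeR's quasi-likelihood test with Benjamini-Hochberg adjustment over all genes tested, with the animal as a covariate and n = 4 eyes per group.

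The tissue labels matched their defining markers. RPE65, the isomerase of the pigment epithelium, averaged 6155 CPM in foveal RPE/choroid and 67.0 CPM in foveal retina. It averaged 3383 CPM in peripheral RPE/choroid and 151 CPM in peripheral retina. The RPE/choroid periphery library of RM03 OS stood apart, with RPE65 at 482 CPM where the other 3 eyes had 4390, 2591 and 6068 CPM, so the log2 fold changes of fovea over periphery given for single genes in RPE/choroid are also given without this eye. From fovea to periphery of the retina, the summed level of 9 rod markers went from between 4013 and 4610 CPM to between 23891 and 28040 CPM. The 11 markers of Mueller glia and astrocytes went from between 1879.7 and 2076 CPM to between 5785 and 8103 CPM, and the 10 ganglion cell markers from between 9391 and 11277 CPM to between 521 and 1130.1 CPM. None of these markers was at 0. The part of these shifts in the results below was not tested, and in bulk tissue fewer cells of a type and less RNA per cell cannot be told apart.

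In retina all 9 genes differed between fovea and periphery. CYP26A1 and CRABP2 were higher at the fovea, and ALDH1A1, ALDH1A2, ALDH1A3, DHRS3, RARB, CRABP1 and RARRES2 were higher at the periphery. Of 15514 genes tested there, 67% were called, so that a called gene was common in this comparison, with 31.3% called higher at the fovea and 35.7% higher at the periphery. The median absolute log2 fold change of the 9 genes was 1.88, and that of all genes tested was 0.58. Because the genes were chosen with earlier results of these data known, these 2 values cannot show that the genes stand out. The 4 foveal and the 4 peripheral values did not overlap for 7 of the 9 genes, and 53.5% of all genes tested had this property. ALDH1A2 and DHRS3 were the exceptions. Each of the 9 calls was also made when any 1 eye was left out.

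**Figure D1:**
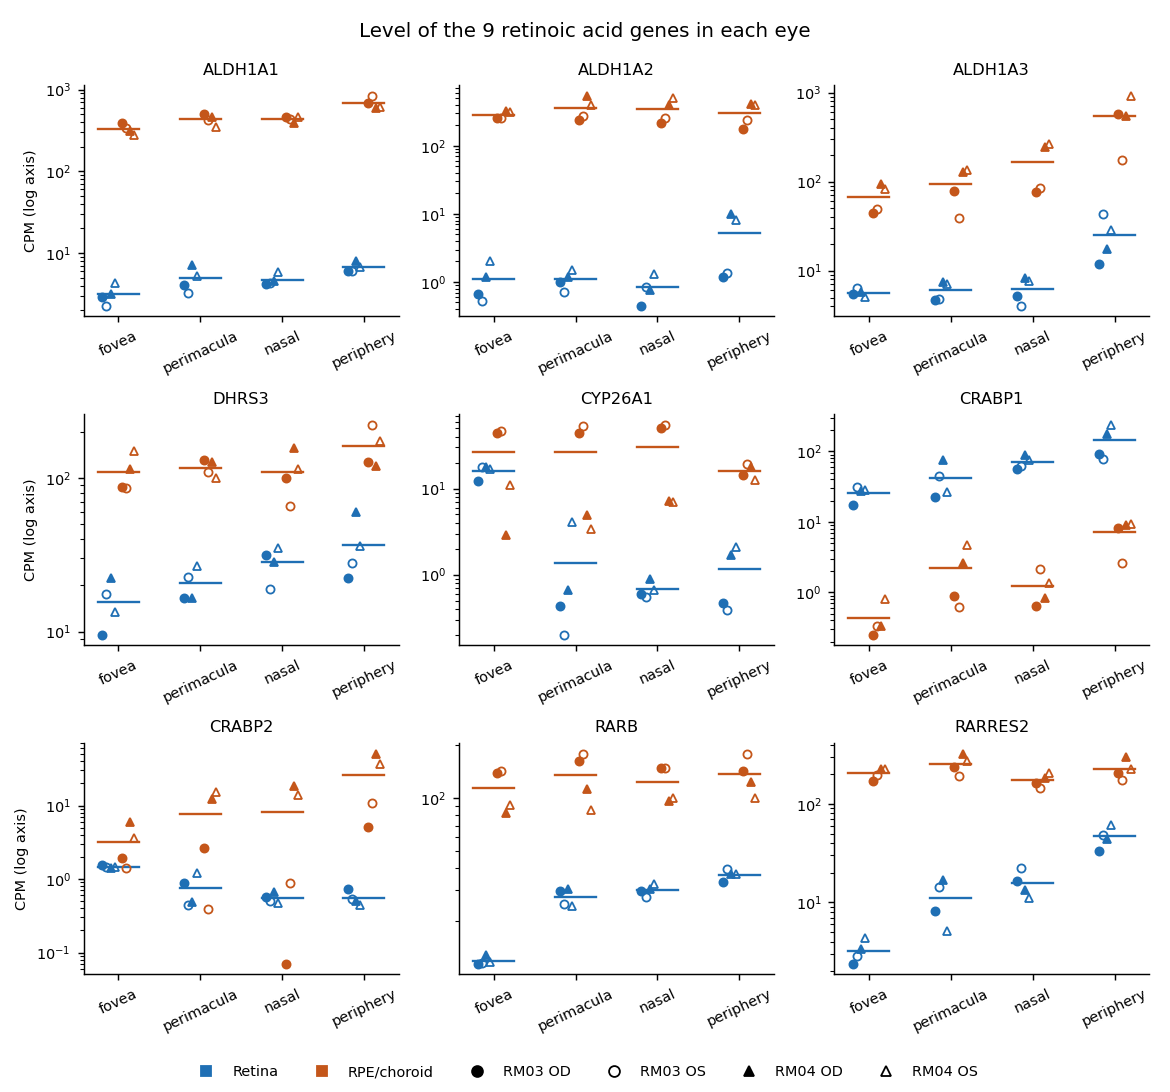
Level of each of the 9 genes in every library, in CPM on a log axis, by location for retina and RPE/choroid. Points are eyes (n = 4 per group), bars are means, and CYP26A1 in retina is highest at the fovea in all 4 eyes, whereas RARB and RARRES2 in retina are lowest there.

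CYP26A1, the hydroxylase that starts the removal of retinoic acid, had the largest change of the 9 genes in retina. Its level was 12.3, 17.7, 17.7 and 16.9 CPM in the 4 foveas. It was 0.431, 0.201, 0.671 and 4.09 CPM in the perimacula, 0.601, 0.553, 0.900 and 0.662 CPM in the nasal retina and 0.465, 0.393, 1.69 and 2.07 CPM in the periphery. Every foveal value lay above all 12 values from elsewhere in the retina, and the other 3 locations overlapped one another. The log2 fold change of fovea over periphery was 4.30 ± 0.62 (SE; adjusted p = 7.28e-05). The foveal level was also higher than that of the perimacula, by 4.13 ± 0.63 on the log2 scale (SE; adjusted p = 0.000583), and than that of the nasal retina, by 4.73 ± 0.60 (SE; adjusted p = 1.31e-05), and neither of these crosses flow cells.

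In RPE/choroid CYP26A1 set the animals apart at 3 of the 4 locations. At the fovea it was 44.6 and 47.0 CPM in the eyes of RM03 and 2.89 and 10.9 CPM in the eyes of RM04. The perimacula gave 44.1, 53.9, 4.87 and 3.37 CPM and the nasal location 50.9, 55.0, 7.21 and 6.995 CPM. At these 3 locations both eyes of RM03 were above both eyes of RM04, whereas at the periphery all 4 eyes lay together at 14.4, 19.5, 17.9 and 12.6 CPM. Fovea against periphery gave a log2 fold change of -0.16 with a 95% interval from -1.43 to 1.11 (adjusted p = 0.861). It was 0.71 without RM04 OD (adjusted p = 0.384). With 2 animals, the animal and anything else that differed between them cannot be told apart. The 10 markers of macrophages and microglia, cells that the choroid holds in number, were also higher in RM03 at the fovea, with a summed level of 2605, 2493, 1122 and 1378 CPM, and at the periphery, with 2542, 2484, 1715 and 1780 CPM, and none was at 0. Their part in the level of CYP26A1 was not tested.

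Retina and RPE/choroid were compared for CYP26A1 at each location. At the fovea the retina minus RPE/choroid difference was -0.52 on the log2 scale with an interval from -2.31 to 1.27 (adjusted p = 0.616), too wide to place one tissue above the other, and it turned to 0.27 without RM03 OD. At the perimacula, periphery and nasal location retina was lower, with log2 fold changes of -4.05 (adjusted p = 0.00218), -3.70 (adjusted p = 0.00238) and -5.19 (adjusted p = 7.52e-05). The perimacular call was lost without RM03 OD (-2.95, adjusted p = 0.0529). The change between fovea and nasal location differed between the tissues by 4.76 ± 1.28 (SE; adjusted p = 0.00775), while for fovea against periphery the difference of 3.18 ± 1.29 did not pass the test (adjusted p = 0.0552), though DESeq2 called it (3.14, adjusted p = 0.0381) and also called the difference for fovea against perimacula (3.56, adjusted p = 0.04).

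The entry LOC704750, paired with CYP26B1, another hydroxylase of retinoic acid, ran the other way in retina. It had 0.144, 0.139, 0.165 and 0.0994 CPM at the fovea, from 6 to 10 estimated counts per library. It had 0.694, 0.930, 3.29 and 0.553 CPM in the perimacula, 2.49, 4.13, 5.74 and 7.02 CPM in the nasal retina and 7.02, 20.2, 41.9 and 48.8 CPM in the periphery. The foveal values lay below all others. The log2 fold change of fovea over periphery was -7.55 ± 0.66 (SE; adjusted p = 1.28e-06) and that over the nasal retina -5.12 ± 0.60 (SE; adjusted p = 6.13e-06). In RPE/choroid the entry averaged 14.99 ± 2.92 CPM at the fovea and 28.9 ± 2.70 CPM at the periphery (SD, n = 4 each), with a log2 fold change of -0.97 ± 0.15 (SE; adjusted p = 0.000373), or -1.10 without RM03 OS (adjusted p = 0.00115). The 2 tissues differed in this change by -6.70 ± 0.75 (SE; adjusted p = 1.11e-06).

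**Figure D2:**
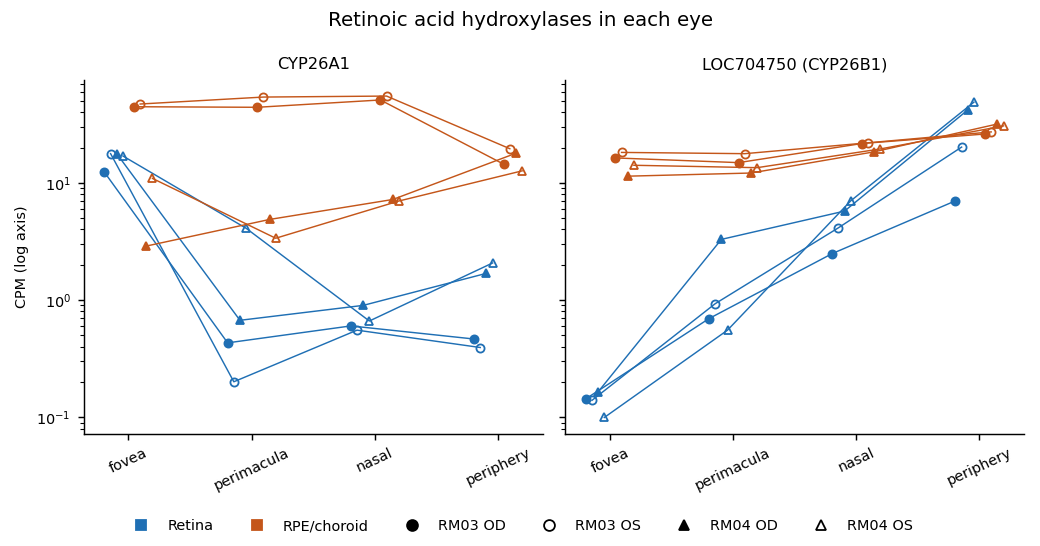
CYP26A1 and the entry LOC704750 (paired with CYP26B1) at the 4 locations of retina and RPE/choroid, in CPM on a log axis, with lines joining the samples of 1 eye. In retina CYP26A1 is highest at the fovea and LOC704750 is lowest there, and in RPE/choroid the CYP26A1 lines of RM03 and RM04 are apart except at the periphery.

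The 3 enzymes that make retinoic acid were all higher in peripheral than in foveal retina. ALDH1A1 had 2.89, 2.26, 3.16 and 4.31 CPM at the fovea and 6.04, 6.10, 8.01 and 6.81 CPM at the periphery, without overlap. The perimacula, at 4.02, 3.26, 7.23 and 5.27 CPM, and the nasal retina, at 4.19, 4.26, 4.498 and 5.85 CPM, had means between these, and the perimacula overlapped both groups and the nasal retina the fovea. Fovea over periphery gave -1.06 ± 0.17 (SE; adjusted p = 0.000137). The call against the perimacula (-0.61, adjusted p = 0.0136) was lost without RM03 OD (adjusted p = 0.0717) or RM04 OD (adjusted p = 0.159), and that against the nasal retina (-0.56, adjusted p = 0.00873) without RM03 OD (adjusted p = 0.0595) or RM03 OS (adjusted p = 0.0623).

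In RPE/choroid ALDH1A1 was 390.2, 342, 311 and 275 CPM at the fovea and 690.3, 837, 595 and 620.0 CPM at the periphery. The foveal values lay below all peripheral ones and overlapped those of the perimacula, which ran from 345 to 510.4 CPM. Fovea over periphery again gave -1.06, here ± 0.11 (SE; adjusted p = 3.34e-05), and -0.98 without RM03 OS (adjusted p = 0.00075). The changes in the 2 tissues differed by -0.00, with an interval from -0.50 to 0.49 (adjusted p = 0.999). Retinal ALDH1A1 amounted to 0.957% of its level in RPE/choroid at the fovea and 0.983% at the periphery. Over the same 2 locations the share for 7 melanocyte markers was 0.622% and 1.65%, for 10 stromal fibroblast markers 2.79% and 1.58%, and for 11 pigment epithelium markers, of which RLBP1 is also made by Mueller glia, 2.61% and 11.9%. How much RNA of RPE/choroid the retina libraries held was not tested.

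ALDH1A2, an enzyme of mesenchymal tissues in many organs, was near 1 CPM in most retina libraries. The fovea gave 0.677, 0.522, 1.19 and 2.01 CPM and the periphery 1.18, 1.34, 10.0 and 8.24 CPM. Each eye was higher at its periphery than at its fovea. Only the 2 peripheral samples of RM04 stood clear of all foveas, and those of RM03 overlapped the foveas of RM04. The log2 fold change was -1.88 ± 0.39 (SE; adjusted p = 0.00121). In RPE/choroid ALDH1A2 was 257, 261, 322 and 311 CPM at the fovea and 179.9, 244, 411 and 403 CPM at the periphery, and the groups overlapped. The changes in the tissues differed by -2.02 ± 0.49 (SE; adjusted p = 0.00257). ALDH1A2 in retina was 0.381% of its RPE/choroid level at the fovea, 1.68% at the periphery and 0.244% in nasal samples.

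ALDH1A3, the third enzyme of this kind and one that the pigment epithelium is known to make, had its highest mean at the periphery in both tissues. In retina it was 5.41, 6.35, 5.81 and 5.01 CPM at the fovea and 11.96, 43.1, 17.6 and 28.7 CPM at the periphery. The perimacula ran from 4.74 to 7.50 CPM and the nasal retina from 4.03 to 8.20 CPM, and both overlapped the fovea but not the periphery. The log2 fold changes against the periphery were -2.10 ± 0.34 for the fovea (SE; adjusted p = 0.000165), -2.03 for the perimacula (adjusted p = 0.000448) and -2.04 for the nasal retina (adjusted p = 0.000138). All 3 cross flow cells. Retinal ALDH1A3 was 8.36% of its RPE/choroid level at the fovea and 4.59% at the periphery. For the 11 pigment epithelium markers these shares were 2.61% and 11.9%. Their summed level in retina went from between 509 and 653 CPM at the fovea to between 2228 and 3138 CPM at the periphery. The part of RPE/choroid RNA in the retinal level of ALDH1A3 was not tested.

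In RPE/choroid ALDH1A3 was 44.2, 48.9, 94.7 and 82.4 CPM at the fovea, 77.5, 39.2, 127 and 134 CPM in the perimacula, 76.8, 85.2, 243 and 265 CPM at the nasal location and 569, 174, 549 and 916 CPM at the periphery. Both eyes of RM04 were above both eyes of RM03 at the first 3 locations, and RM03 OS was lowest at the periphery. The peripheral values overlapped those of the nasal location and lay above those of the fovea and perimacula. Fovea over periphery gave -3.03 ± 0.35 (SE; adjusted p = 6.79e-05), or -3.27 without RM03 OS (adjusted p = 0.000114). The changes in the tissues differed by 0.90 (adjusted p = 0.217) with all eyes and by 1.57 (adjusted p = 0.00327) without RM03 OS. Over the same locations the summed level of 10 stromal fibroblast markers went from between 3529 and 4545 CPM to between 5770.2 and 11521 CPM, with 1 marker at 0 at the fovea, and RM03 OS had the highest of these sums at the periphery and the lowest ALDH1A3. The 11 pigment epithelium markers had 18477, 15646, 25357 and 25526 CPM at the fovea and 30589, 13118, 19993 and 31186 CPM at the periphery. At the periphery their sum was lowest in RM03 OS and highest in RM04 OS, as ALDH1A3 was. The 7 melanocyte markers went from between 6663 and 8609 CPM to between 10598 and 12715 CPM. The 9 markers of smooth muscle and pericytes went down from between 6977 and 11247 CPM to between 1243 and 2983 CPM, with 1 at 0 at the periphery, and the 10 endothelial markers from between 1984 and 3029 CPM to between 1253 and 1596 CPM. The part of these shifts was not tested.

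DHRS3, which returns retinal to retinol and is itself induced by retinoic acid in many cells, was 9.56, 17.5, 22.2 and 13.3 CPM in foveal retina. It was 22.2, 27.8, 60.1 and 35.995 CPM in peripheral retina. The highest foveal and the lowest peripheral value met at 22.2 CPM. The fovea differed from the periphery by -1.11 ± 0.28 (SE; adjusted p = 0.00401). Against the nasal retina, at 31.5, 18.8, 28.3 and 34.8 CPM, it was -0.82 ± 0.27 (SE; adjusted p = 0.0194), a call lost without RM03 OD (adjusted p = 0.185) or RM04 OS (adjusted p = 0.136). In RPE/choroid the fovea had 87.4, 85.2, 114 and 150.2 CPM and the periphery 127, 221, 119.7 and 174 CPM, which overlapped. The difference there was -0.57 with an interval from -1.01 to -0.14, and it did not pass the adjusted test (adjusted p = 0.0565), though DESeq2 called it (-0.56, adjusted p = 0.0276).

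CRABP1, a cytoplasmic carrier of retinoic acid, was the 1 member higher in retina than in RPE/choroid. In retina it was 17.5, 31.2, 27.4 and 28.4 CPM at the fovea, 22.8, 44.9, 75.8 and 26.3 CPM in the perimacula, 57.2, 61.9, 89.4 and 75.1 CPM at the nasal location and 90.7, 78.5, 177 and 238 CPM at the periphery. The fovea lay below all nasal and peripheral values and overlapped the perimacula. Against the periphery the fovea had -2.30 ± 0.37 (SE; adjusted p = 0.000153), and fovea over nasal retina -1.37 ± 0.32 (SE; adjusted p = 0.00233).

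The same direction held for CRABP1 in RPE/choroid at a far lower level, with 0.2505, 0.334, 0.330 and 0.792 CPM at the fovea and 8.23, 2.64, 8.96 and 9.26 CPM at the periphery. The groups did not overlap and RM03 OS was lowest at the periphery. The fovea differed from the periphery by -4.16 ± 0.52 (SE; adjusted p = 0.000108), or -4.42 without RM03 OS (adjusted p = 0.000751). The level in RPE/choroid was 1.63% of that in retina at the fovea, 4.98% at the periphery, 5.21% in the perimacula and 1.74% in nasal samples. For the 9 rod markers the same shares, in the same order of locations, were 4.53%, 1.92%, 0.555% and 0.799%, and none of them was at 0 in RPE/choroid. Over the 4 locations the share was 3.49% to 21.4% for the ganglion cell markers, 8.90% to 18.9% for cone markers, 16.6% to 23.995% for amacrine and horizontal cell markers and 30.98% to 48.5% for bipolar cell markers. Whether retinal RNA in the RPE/choroid libraries accounts for CRABP1 there was not tested. The tissues differed in this change by 1.87 ± 0.66 (SE; adjusted p = 0.0301), a call lost without RM03 OD (1.52, adjusted p = 0.164) or RM04 OD (1.83, adjusted p = 0.123).

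CRABP2, the carrier that hands retinoic acid to its nuclear receptors, changed in opposite directions in the tissues. In retina it was 1.56, 1.48, 1.42 and 1.46 CPM at the fovea, 0.886, 0.438, 0.491 and 1.20 CPM in the perimacula, 0.567, 0.504, 0.662 and 0.471 CPM at the nasal location and 0.728, 0.539, 0.500 and 0.449 CPM at the periphery. All 4 foveas lay above all other retinal samples, at a low level throughout. Fovea over periphery gave 1.47 ± 0.30 (SE; adjusted p = 0.000951) and fovea over nasal retina 1.46 ± 0.28 (SE; adjusted p = 0.000436). The call against the perimacula (0.99, adjusted p = 0.0226) was lost without RM03 OD (adjusted p = 0.0665), RM03 OS (adjusted p = 0.091) or RM04 OD (adjusted p = 0.113).

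In RPE/choroid CRABP2 was 1.95, 1.40, 5.99 and 3.56 CPM at the fovea and 5.06, 10.8, 50.7 and 37.0 CPM at the periphery. Each eye was higher at its periphery, and RM04 was above RM03 at both locations, so that the groups overlapped. The log2 fold change was -2.68 ± 0.53 (SE; adjusted p = 0.00218), or -2.62 without RM03 OS (adjusted p = 0.00183). Between the tissues the change differed by 4.25 ± 0.94 (SE; adjusted p = 0.00124). At the fovea the tissues could not be placed in order (-0.80, interval from -2.07 to 0.47, adjusted p = 0.271), and at the periphery retina was lower by a log2 fold change of -5.04 (adjusted p = 4.44e-06).

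RARB, a receptor of retinoic acid whose gene is switched on by that receptor family, had the least spread between eyes in retina. It was 11.5, 11.6, 12.9 and 11.8 CPM at the fovea, 29.9, 25.3, 30.5 and 24.5 CPM in the perimacula, 29.9, 27.6, 30.4 and 32.8 CPM at the nasal location and 33.6, 39.6, 37.1 and 37.1 CPM at the periphery. The fovea was below, and the periphery above, every sample of the perimacula and the nasal retina, and those 2 overlapped. Fovea over periphery gave -1.57 ± 0.10 (SE; adjusted p = 1.5e-07), over perimacula -1.19 ± 0.10 (SE; adjusted p = 1.68e-05) and over nasal retina -1.30 ± 0.08 (SE; adjusted p = 4.74e-08). The last 2 do not cross flow cells.

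In RPE/choroid RARB was 139.8, 143, 82.6 and 92.1 CPM at the fovea and 142, 179, 124 and 101 CPM at the periphery. The groups overlapped and RM03 was the higher animal at both locations. The log2 fold change of -0.28, with an interval from -0.50 to -0.06, did not pass the adjusted test (adjusted p = 0.0614), nor did it without RM03 OS (-0.26, adjusted p = 0.16). The changes in the tissues differed by -1.32 ± 0.23 for fovea against periphery (SE; adjusted p = 0.00015), by -0.95 against the perimacula (adjusted p = 0.0115) and by -1.22 against the nasal location (adjusted p = 0.000422), of which the perimacular call was lost without RM03 OD (adjusted p = 0.117) or RM04 OD (adjusted p = 0.0619). RARB in retina was 10.4% of its RPE/choroid level at the fovea and 27.003% at the periphery.

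RARRES2, which encodes the secreted protein chemerin and was named for its response to a retinoid, had the largest rise of the 9 genes towards the retinal periphery. In retina it was 2.40, 2.87, 3.38 and 4.36 CPM at the fovea, 8.24, 14.3, 16.7 and 5.09 CPM in the perimacula, 16.5, 22.1, 13.4 and 11.03 CPM at the nasal location and 33.5, 48.4, 43.9 and 61.3 CPM at the periphery. The fovea was below and the periphery above all samples of the other locations. Fovea over periphery gave -3.79 ± 0.36 (SE; adjusted p = 2.3e-06), over perimacula -1.78 ± 0.34 (SE; adjusted p = 0.00195) and over nasal retina -2.24 ± 0.35 (SE; adjusted p = 8.52e-05).

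RARRES2 in RPE/choroid was 169, 196, 227 and 228 CPM at the fovea and 205, 173, 299 and 224 CPM at the periphery, and the groups overlapped. The difference was -0.14, with an interval from -0.36 to 0.09 (adjusted p = 0.358), which does not reach the retinal value. Between the tissues the change differed by -3.68 ± 0.37 (SE; adjusted p = 3.72e-07). The level in retina was 1.59% of that in RPE/choroid at the fovea and 20.8% at the periphery.

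In RPE/choroid 4 of the 9 genes were called between fovea and periphery, ALDH1A1, ALDH1A3, CRABP1 and CRABP2, all higher at the periphery, where 43.7% of 15879 genes were called and 22.7% were called higher at the periphery and 21% higher at the fovea. The foveal and peripheral values did not overlap for 3 of the 9 genes, and for 30.9% of all genes tested. The same 4 genes were called without RM03 OS, with the values given above, and without this eye DHRS3 was at -0.28 (adjusted p = 0.325), CYP26A1 at -0.54 (adjusted p = 0.595) and RARRES2 at -0.24 (adjusted p = 0.139). CRABP2 was thus called in opposite directions in the tissues, and ALDH1A1, ALDH1A3 and CRABP1 in the same direction. The difference of the tissues itself was called for 5 of the 9 genes, ALDH1A2, CRABP1, CRABP2, RARB and RARRES2, where 40.2% of 16284 genes were called. Without RM03 OS it was called for these 5 and for ALDH1A3, with RARRES2 at -3.47 (adjusted p = 5.94e-05), CRABP2 at 4.30 (adjusted p = 0.00342) and RARB at -1.26 (adjusted p = 0.00182). For fovea against nasal location it was called for 3 of the 9, CYP26A1, RARB and RARRES2, beside 23.5% of all genes. For fovea against perimacula it was called for RARB and RARRES2, 2 of the 9, beside 11.5% of all genes, and for neither without RM03 OD (adjusted p = 0.117 and 0.105) or RM04 OD (adjusted p = 0.0619 and 0.14), while RARRES2 was also lost without RM03 OS (adjusted p = 0.12).

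**Figure D3:**
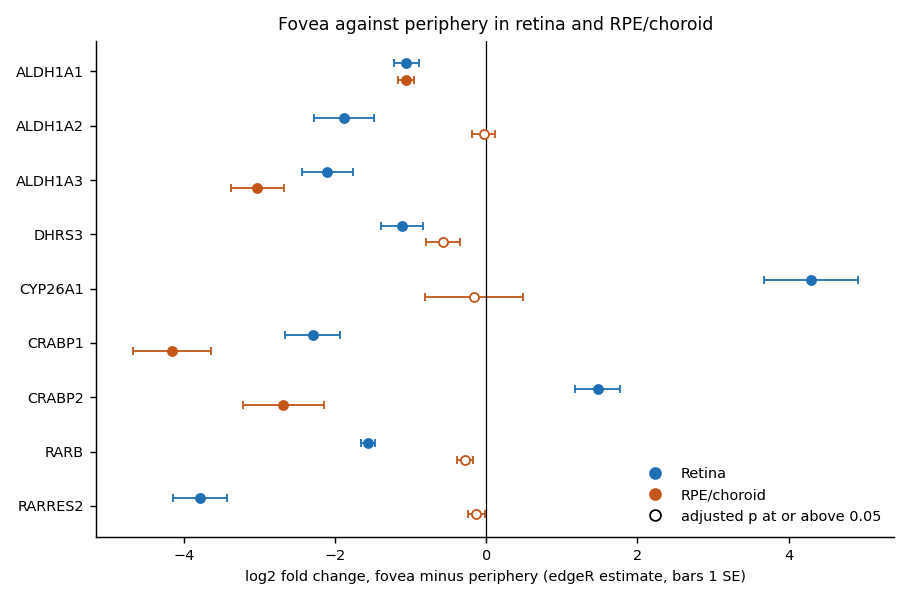
Log2 fold change of fovea over periphery for the 9 genes in retina and RPE/choroid, with error bars of 1 SE and open symbols where the adjusted p was 0.05 or more. CYP26A1 and CRABP2 lie above 0 in retina, and the 4 called genes of RPE/choroid all lie below 0.

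Within flow cells the retina held most of the contrast. Fovea against perimacula called 5 of the 9 genes in retina, CYP26A1 and CRABP2 higher and ALDH1A1, RARB and RARRES2 lower at the fovea, beside 36.1% of all genes (17.1% higher and 19% lower at the fovea). Fovea against nasal retina called these 5 and CRABP1 and DHRS3, both lower at the fovea, beside 52.2% of all genes (25.1% higher and 27.2% lower at the fovea). In RPE/choroid these comparisons called 0 of the 9 with edgeR, beside 0.0441% and 0.361% of all genes. At an unadjusted p under 0.05 there were 3 and 4 of the 9, beside 1691 of 15879 and 2449 of 15789 genes, and DESeq2 called 2 of the 9 in each, beside 313 and 490 genes. Against the perimacula these were ALDH1A1 (-0.41, adjusted p = 0.22 with edgeR and 0.0394 with DESeq2) and CRABP1 (-2.12, adjusted p = 0.166 and 0.00247), and against the nasal location ALDH1A1 (-0.41, adjusted p = 0.11 and 0.0167) and ALDH1A3 (-1.17, adjusted p = 0.118 and 0.00583).

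The perimacula and the nasal location were told apart for few of these genes. Of the 9, none was called between these locations in retina with edgeR, beside 1.49% of all genes. At an unadjusted p under 0.05 there was 1, beside 2569 of 15486 genes. The median absolute log2 fold change in retina was 0.44 for the 9 genes and 0.13 for all genes tested. A lack of calls thus does not show equal levels. In RPE/choroid 1 was called, RARRES2 (0.54 higher in the perimacula on the log2 scale, adjusted p = 0.0163), beside 3.07% of all genes (1.89% higher in the perimacula), and this was lost without RM03 OD (adjusted p = 0.11), RM04 OD (adjusted p = 0.124) or RM04 OS (adjusted p = 0.116). Against the retinal periphery 6 of the 9 were lower in the perimacula and 6 in the nasal retina, where 50.6% and 48.7% of all genes were called and 24.3% and 24.2% were called lower than at the periphery. In both cases these were ALDH1A1, ALDH1A2, ALDH1A3, CRABP1, RARB and RARRES2, with CRABP1 at -1.65 (adjusted p = 0.00232) and -0.95 (adjusted p = 0.0227) and RARRES2 at -2.01 (adjusted p = 0.000382) and -1.55 (adjusted p = 0.00141). DHRS3 in the perimacula narrowly missed (-0.71, adjusted p = 0.0503) and was called with DESeq2 (adjusted p = 0.0184). The perimacular call of ALDH1A1 (-0.44, adjusted p = 0.0401) was lost without RM03 OD (adjusted p = 0.101), RM03 OS (adjusted p = 0.184) or RM04 OS (adjusted p = 0.0597). Of the nasal calls, that of ALDH1A1 (adjusted p = 0.0143) was lost without RM03 OD (adjusted p = 0.0536), that of CRABP1 without RM04 OD (adjusted p = 0.0582) or RM04 OS (adjusted p = 0.0757), and that of RARB (-0.28, adjusted p = 0.0109) without RM03 OS (adjusted p = 0.082).

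Against the RPE/choroid periphery, 4 genes were lower in the perimacula and 5 at the nasal location, where 34.5% and 44.6% of all genes were called and 17% and 22.8% were called lower than at the periphery. ALDH1A1 (-0.66 and -0.65) and ALDH1A3 (-2.60 and -1.86) were called in both. CRABP1 was called at -2.04 (adjusted p = 0.0063) and -2.41 (adjusted p = 0.00328), the latter not without RM03 OD (adjusted p = 0.0536). CRABP2 was called at -1.97 (adjusted p = 0.0122), not without RM04 OD (adjusted p = 0.0834), and at -2.32 (adjusted p = 0.0155), not without RM03 OS (adjusted p = 0.069). RARRES2 was called at the nasal location, at -0.38 (adjusted p = 0.0108), a call lost without RM04 OD (adjusted p = 0.0888).

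Between tissues the 9 genes divided the same way at all 4 locations: CRABP1 was higher in retina and the other called genes were higher in RPE/choroid. At the fovea 7 of the 9 were called, beside 74.6% of all genes, and at the other locations, in the order perimacula, periphery and nasal, all 9 were called, beside 75.6%, 74.3% and 76.2%. Higher in RPE/choroid were 6 of the 9 at the fovea and 8 at each other location, beside 36.8% of all genes at the fovea, 37.8% at the perimacula, 37.1% at the periphery and 38.6% at the nasal location, and higher in retina was 1, CRABP1, beside 37.8%, 37.8%, 37.2% and 37.6%. The retina and RPE/choroid values did not overlap for 7, 7, 9 and 8 of the 9 genes at the fovea, perimacula, periphery and nasal location, and for 68.4%, 68.7%, 60.5% and 70.8% of all genes. In that order of locations, the log2 fold change of retina over RPE/choroid was 6.10, 4.502, 4.24 and 5.78 for CRABP1. It was -6.68, -6.46, -6.67 and -6.54 for ALDH1A1, nearly level over the locations, and -5.94, -4.47, -2.26 and -3.43 for RARRES2, which was furthest apart at the fovea. Without RM03 OS all 9 were still called at the periphery. The CRABP2 call at the nasal location (-3.18, adjusted p = 0.00211) was lost without RM04 OD (-2.19, adjusted p = 0.0739) or RM04 OS (-2.37, adjusted p = 0.0629).

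**Figure D4:**
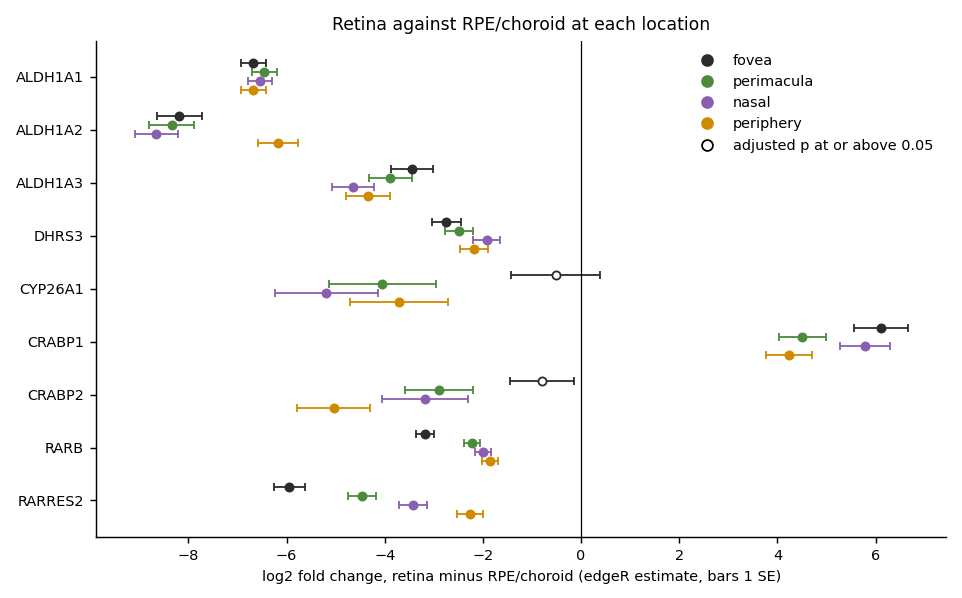
Log2 fold change of retina over RPE/choroid at each of the 4 locations for the 9 genes, with error bars of 1 SE. CRABP1 is above 0 at all locations, CYP26A1 and CRABP2 come nearest to 0 at the fovea, and RARB and RARRES2 are lowest at the fovea.

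The order of the locations by mean level summarises retina for single genes. CYP26A1 was highest at the fovea, and its other 3 locations did not differ beyond their spread. RARRES2 and RARB had the order fovea, perimacula, nasal retina and periphery from lowest to highest, with overlap between the perimacula and the nasal retina and between no other neighbours. ALDH1A1, DHRS3 and CRABP1 overlapped at every step of their order. Across the 16 retina libraries, which share animals, flow cells and shifts in cell makeup, the log2 levels of CYP26A1 and RARB had a Pearson r of -0.849. CYP26A1 and CRABP2 had 0.843, CRABP1 and RARRES2 0.891, and LOC704750 and RARRES2 0.944. Across the 16 RPE/choroid libraries CYP26A1 and RARB had 0.851, the opposite sign to retina. For both genes each RM03 eye was above each RM04 eye at the fovea, perimacula and nasal location of RPE/choroid. That difference between the animals enters the value of 0.851. ALDH1A3 and CRABP1 had 0.827 across the same libraries. These values are descriptions.

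Other genes of the pathway were counted by the step they act in, to be read beside the shares of all genes called between fovea and periphery, given above. Of the 15 tested entries for enzymes that oxidise or reduce retinol or retinal, 10 were called between fovea and periphery in retina. At the fovea 1 was higher and 9 were lower, with a list median of -0.98 where all genes had -0.05. RDH10, the main enzyme that oxidises retinol to retinal for retinoic acid synthesis, averaged 21.98 ± 2.06 CPM at the fovea and 136 ± 27.2 CPM at the periphery of retina (SD, n = 4 each), with a log2 fold change of -2.58 (adjusted p = 2.81e-07). In RPE/choroid it went the other way, from 328 ± 151 to 81.1 ± 40.8 CPM (SD), with 1.89 (adjusted p = 0.0026), or 1.79 without RM03 OS (adjusted p = 0.0131), and the tissues differed by -4.51 (adjusted p = 3.11e-06). AOX1, an oxidase that also acts on retinal, was at -2.69 and DHRS9 at -2.10 in retina. AOX1 averaged 0.885 CPM at the fovea and 6.13 CPM at the periphery of retina, and 90.4 and 69.9 CPM in RPE/choroid. The part of RPE/choroid RNA in its retinal level was not tested. In RPE/choroid 6 of 16 entries of this list were called, 4 higher and 2 lower at the fovea, with a list median of -0.25 beside -0.06.

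Of 11 entries for binding and uptake in retina, 8 were called, 2 higher and 6 lower at the fovea, with a list median of -0.68. RLBP1, the retinal carrier of pigment epithelium and Mueller glia, was lower at the fovea by a log2 fold change of -3.09 (adjusted p = 1.87e-07) and TTR, the serum carrier of retinol-binding protein, by -3.22. Both are among the pigment epithelium markers used above. TTR averaged 56.8 CPM at the fovea and 550 CPM at the periphery of retina, and 2887 and 5409 CPM in RPE/choroid. The part of RPE/choroid RNA in its retinal level was not tested. RBP4 was higher by 1.28 and FABP5, a lipid carrier with 2 entries of its symbol, by 1.70. STRA6, the receptor that takes up retinol, was lower at the foveal retina (-0.9995, adjusted p = 0.00321) and higher at the foveal RPE/choroid (2.12, adjusted p = 0.0119), the latter not without RM04 OD (adjusted p = 0.0713) or RM04 OS (adjusted p = 0.0596), and at 2.02 without RM03 OS (adjusted p = 0.0309). In RPE/choroid 3 of 11 were called, with a list median of 0.12.

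All 3 tested genes for carotenoid cleavage and other breakdown were called in retina. BCO2, which splits xanthophylls, was lower at the fovea by a log2 fold change of -2.54 (adjusted p = 5.99e-08), from 159 CPM at the periphery to 26.2 CPM on average. BCO1, which splits beta-carotene into retinal, was lower by -1.16 (adjusted p = 0.00251). It averaged 1.65 CPM at the fovea and 3.73 CPM at the periphery of retina, and 114 and 53.3 CPM in RPE/choroid. The part of RPE/choroid RNA in its retinal level was not tested. CYP1B1, a monooxygenase that can make retinal from retinol, was higher (2.51, adjusted p = 0.00467), a call lost without RM04 OD (adjusted p = 0.0624) or RM04 OS (adjusted p = 0.0503). Its level in retina was near the floor, on average 0.608 CPM at the fovea and 0.0922 CPM at the periphery. In RPE/choroid CYP1B1 was lower at the fovea (-1.16, adjusted p = 0.000423, or -1.21 without RM03 OS, adjusted p = 0.00204). It was the 1 gene of 4 called there.

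For receptors and their partners, 9 of 12 were called in retina, 6 higher and 3 lower at the fovea, and 10 of 12 in RPE/choroid, 6 higher and 4 lower. RXRG, the partner receptor made by cones, was 1.88 higher at the foveal retina, and RARG was lower (-1.61). NR2F1, an orphan receptor, was lower at the fovea in both tissues (-1.43 in retina and -1.29 in RPE/choroid, with and without RM03 OS). Coregulators were mostly higher at the fovea, 8 of the 9 called of 12 in retina and 9 of the 10 called of 12 in RPE/choroid, with list medians of 0.33 and 0.55. CREBBP, a coactivator, was at 1.00 in retina.

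Among other genes known to respond to retinoic acid, 6 of 9 were called in retina, 1 higher and 5 lower at the fovea, with a list median of -0.69. In RPE/choroid 7 of 12 were called, 5 higher and 2 lower, with a list median of 0.22. TGM2, a transglutaminase, averaged 4.73 CPM at the fovea and 24.2 CPM at the periphery of retina (-2.04, adjusted p = 0.000481), and 1276 and 282 CPM in RPE/choroid (2.003, adjusted p = 0.000345, or 1.85 without RM03 OS, adjusted p = 0.00343). How much RPE/choroid RNA added to the retinal level of TGM2 was not tested. PDK4, a mitochondrial kinase that slows glucose oxidation, averaged 1.93 and 23.99 CPM in retina (-3.73) and 132 and 59.8 CPM in RPE/choroid (1.06, adjusted p = 0.00182, or 0.85 without RM03 OS, adjusted p = 0.00613). The tissues differed in the change by -4.48 for TGM2 and by -4.70 for PDK4, and for RDH10 the difference had the same sign. Of 3 tested receptors for chemerin, the product of RARRES2, GPR1 was called in retina, lower at the fovea by -2.001 (adjusted p = 6.99e-07).

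**Figure D5:**
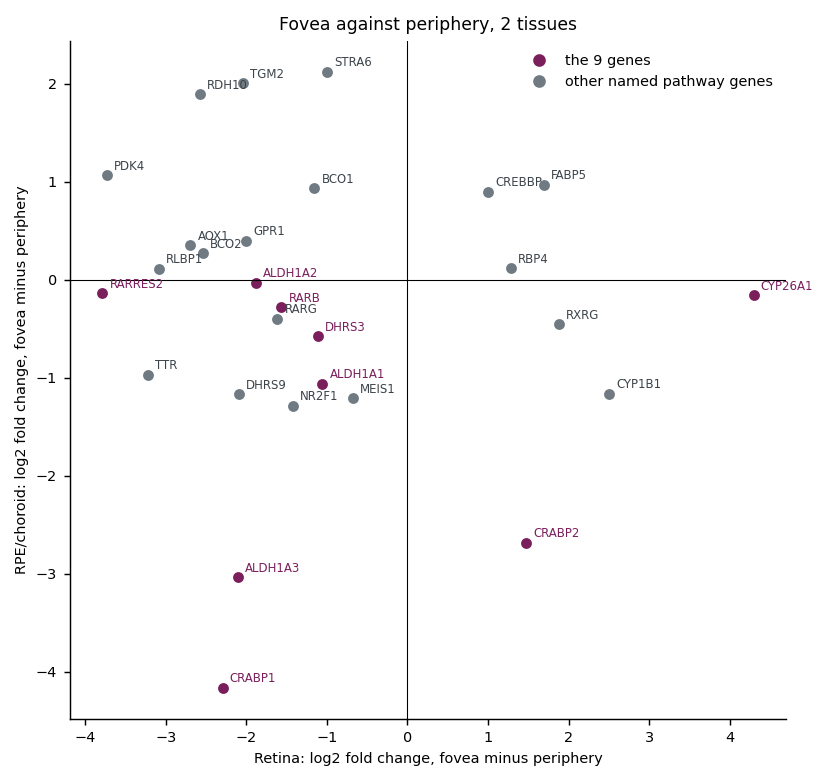
Log2 fold change of fovea over periphery in RPE/choroid against that in retina, for the 9 genes and 19 other named genes of the pathway. RDH10, TGM2 and PDK4 are among the genes with retina below 0 and RPE/choroid above 0, as are STRA6 and BCO1. CRABP2 is among those in the opposite corner, as is CYP1B1.

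The genes most like each member were found by the Pearson correlation of log2 CPM over the 16 libraries of the tissue with the higher mean level. They share libraries, animals and cell makeup with the member, and nothing is said of function. In retina CRABP1 was closest to UBXN11 (0.980), PTGDS (0.978) and RPL27A (0.973). In RPE/choroid, among 15789 genes, CYP26A1 was closest to MARCKS (0.966), RFTN1 (0.963) and MS4A4A (0.956). RARB was closest to FOLR1 (0.964), TCEANC (0.961) and C1QTNF7 (0.956). ALDH1A1 was closest to NSMCE2 (0.960), DHX15 (0.956) and PM20D2 (0.953), ALDH1A2 to CYTH4 (0.948), VSIG1 (0.938) and ITGB2 (0.933), and ALDH1A3 to MST1R (0.962), ALDH1L1 (0.955) and PCMTD2 (0.948). DHRS3 had the weakest likeness, to TADA1 (0.856), SMOX (0.851) and IVNS1ABP (0.848). CRABP2 was closest to ADGRG5 (0.926), WRAP73 (0.923) and MROH2B (0.920), and RARRES2 to KCTD13 (0.934), ADAMTS14 (0.917) and CITED1 (0.897).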

How the data were processed

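Total RNA of punched retina and RPE/choroid was poly-A selected and sequenced, and samples with an RNA integrity number above 6.5 were used. With Salmon 0.13 the authors quantified every lane against Mmul_8.0.1 transcripts. They used tximport's length-scaled option to reach gene level and deposited 136 lane sets of 19432 entries. The deposited values are estimated counts, which do not sum to a fixed total (7932259 to 39439054 per lane), although their column is headed TPM. The 10 entries that repeat an identifier were dropped. The submitters' processing notes also name edgeR. Lanes are technical runs, so they were summed per library and rounded, and the depth of 42448891 to 78574034 estimated counts sets the counting precision. Groups came from the labels.

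Each comparison was fitted on the whole table with edgeR 4.0.16 (quasi-likelihood test, TMM, filterByExpr at a minimum count of 10, Benjamini-Hochberg adjustment, threshold 0.05) under R 4.3.3 with limma 3.58.1. The animal was a covariate. Fovea, perimacula and periphery shared a fit, and whatever involved the nasal samples was fitted with all 4 locations. Tissue differences are interactions, retina minus RPE/choroid. Intervals are the estimate ± 1.96 SE (95%). The scripts were tested on simulated data. Alternatives were DESeq2 1.42.0, RLE scaling, no filter, the eye as a replicate block, no covariate, the compared libraries alone, leaving out each eye, and a prior count of 0.25 in place of 2 for correlations. Tables and figures were made in Python 3.11.15 (pandas 2.3.3, numpy 2.4.6, matplotlib 3.10.9).

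The replicate numbers stand for eyes, which the labels name. Deviations from group means over the 1000 most variable genes correlated between samples of 1 eye at 0.561 on average in retina and 0.387 in RPE/choroid (lowest 0.172 and 0.177), between fellow eyes at 0.555 and 0.403, and between animals at -0.559 and -0.395. Taking deviations from a mean of both animals makes the value between animals negative wherever the others are positive. Samples of 1 eye were about as alike as those of fellow eyes, so the eye rests on the labels and not on these values.

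Named genes are the members, of each pathway list at most 4 genes per tissue called between fovea and periphery with a log2 change of at least 1 (the 2 strongest in each direction), the 3 genes most like each member, and single markers beside a result. From these, RDH16 and UCP1, which were near 0, and some further genes were left without a value. The members and lists were chosen with earlier results of these data known. A result of 1 named gene is not reported here. No sequence was used here.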

Additional observations from a re-analysis of the deposited data

Results flagged for a closer look

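In 5 of 80 groups of 4 eyes tested, from the 9 members and LOC704750, 1 eye lay far from the other 3 (Dixon's test), and chance gives about 1 in 20, or 4 of 80. CYP26A1 was lowest in RM03 OD at the retinal fovea (12.3 CPM, where the other eyes had 16.9 to 17.7) and highest in RM04 OS at the retinal perimacula (4.09 CPM). CRABP1 in RPE/choroid was highest in RM04 OS at the fovea (0.792 CPM) and lowest in RM03 OS at the periphery (2.64 CPM), the library with little RPE65. LOC704750, paired with CYP26B1, was highest in RM04 OD at the retinal perimacula (3.29 CPM).

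The change between locations differed between the tissues, by the interaction test, in 13 of 30 cases, again over the 9 members and LOC704750. For fovea against periphery the retinal log2 change minus that of RPE/choroid was -2.02 for ALDH1A2, 1.87 for CRABP1, 4.25 for CRABP2, -1.32 for RARB, -3.68 for RARRES2 and -6.70 for LOC704750. For fovea against perimacula it was -0.95 for RARB, -1.48 for RARRES2 and -3.30 for LOC704750. The calls of RARRES2 without RM03 OD (adjusted p = 0.105), RM03 OS (adjusted p = 0.12) or RM04 OD (adjusted p = 0.14) were lost, as were those of LOC704750 without RM03 OS (adjusted p = 0.0523) or RM04 OD (adjusted p = 0.0942). For fovea against nasal location it was 4.76 for CYP26A1, -1.22 for RARB, -2.55 for RARRES2 and -4.67 for LOC704750.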

How the results depend on the processing

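Of 1047 repeats of the 106 called results of the members and LOC704750 under the alternatives, 991 were called in the same direction, 56 were not called and 0 changed sign. Of 823 repeats of results that were not called, 23 were called and 55 had the opposite sign. In RPE/choroid the number of the 9 members called went from 0 to 2 with DESeq2 for fovea against perimacula, from 0 to 2 with DESeq2 and to 1 with the compared libraries only for fovea against nasal location, and, without the covariate, from 4 to 2 for perimacula against periphery, from 5 to 3 for nasal location against periphery and from 1 to 0 for perimacula against nasal location. Leaving out 1 eye gave 3 to 5 members for fovea against perimacula in retina, 0 to 1 for perimacula against nasal location in RPE/choroid and 0 to 3 for the tissue difference in fovea against perimacula. Fits with the eye as a replicate block, in place of the animal, called 9, 5 and 7 members in retina for fovea against periphery, perimacula and nasal location, as with the animal, and ended the call of ALDH1A1 for perimacula against periphery (-0.45, adjusted p = 0.0545), while DHRS3 gained one there (-0.68, adjusted p = 0.0455). Over all genes, retina called 3651 for fovea against perimacula without the covariate (3155 to 4788 without an eye, 5603 as reported), and for perimacula against nasal location 785 with DESeq2, 148 with the replicate block and 29 without the covariate (14 to 66 without an eye, 231 as reported). RPE/choroid called, for fovea against perimacula, 313 with DESeq2, 1 with the replicate block, 1 without the covariate and 359 with the compared libraries only (0 to 5 without an eye, 7 as reported). For fovea against nasal location these numbers were 490, 30, 4 and 331 (0 to 10 without an eye, 57 as reported), and for perimacula against nasal location 1247, 269, 53 and 1649 (21 to 190 without an eye, 484 as reported). For perimacula against periphery there were 3260 to 4968 without an eye (5486 as reported). The tissue difference had 1144 genes without the covariate and 368 to 1227 without an eye for the perimacula (1872 as reported), and 2510 to 3133 without an eye for the nasal location (3853 as reported). Among differences with a printed value that did not pass the test, the sign changed for ALDH1A1 between tissues (fovea against periphery: 0.0063 with no filter, 0.0097 with the replicate block, 0.00059 without the covariate, -0.21 to 0.13 without an eye), for CYP26A1 in RPE/choroid (fovea against periphery: 0.70 without the covariate, 0.16 with the compared libraries only, -0.61 to 0.71 without an eye) and for CYP26A1 between tissues at the fovea (-1.14 to 0.27 without an eye). The cause of these changes was not tested. RLE scaling moved no median by more than 0.031. The highest correlation of CRABP2 was 0.922 at the lower prior count. Low counts limit LOC704750 at the retinal fovea.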
